A study of Arabidopsis thaliana with 6 samples.

Results

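The mature seed of Arabidopsis thaliana holds messenger RNA made while the embryo filled and dried. The 3 RNA-seq libraries of wild-type Columbia-0 (Col-0) fresh seeds describe that stored transcriptome here, out of 6 samples in the series. They were chosen by their sample labels alone. The other 3 samples are seeds of the asf1a1b mutant, and no comparison with them was made. The plants grew on soil under long days, and the labels place the harvest within a day. Cold stratification is named there too, and it is unclear if it applies to the sequenced seeds or to those sown for the plants. Total RNA was extracted. No label ties the 3 libraries to separate plants, so the spread between them may be technical. In bulk seed RNA, more cells of a type and more RNA per cell cannot be told apart.

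In oilseed crucifers the embryo stores nitrogen in cruciferins and 2S albumins, and carbon as oil in bodies coated with oleosins. Late embryogenesis abundant (LEA) proteins are small hydrophilic proteins that accumulate as the embryo dries. The transcription factors ABI3, FUS3 and ABI5 turn many of these genes on during maturation, with abscisic acid as the hormone signal. A thin endosperm and a dead seed coat surround the embryo of the mature seed.

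Levels are given as rescaled TPM, the deposited values, a length-normalised level (TPM) after a further scaling between libraries. The library totals were 1045281, 981524 and 967824 in replicates 1, 2 and 3, and the reads recovered from the values numbered 47993698, 44306636 and 47369795. Shares are percentages of each library's own total. Replicate 1 stood apart from the other two. Across the 14139 genes with a mean of at least 1, Pearson's r on log2(value + 1) was 0.993 between replicates 2 and 3, 0.973 between replicates 1 and 2, and 0.965 between replicates 1 and 3. These correlations are across genes, which are not independent replicates. More than a 2-fold difference in value + 1 separated 0.311% of these genes between replicates 2 and 3, against 3.27% and 5.44% for the pairs with replicate 1. The added 1 shrinks differences at low values, so these percentages undercount 2-fold differences in the values themselves. CRU3, SESA2, the cruciferin and vicilin-like list and the agreement of the libraries are given with and without replicate 1. Of 151 genes named by rule with a mean of at least 10, 28 had a replicate 1 value at least 1.5 times the mean of replicates 2 and 3. In 19 that mean was at least 1.5 times replicate 1. Some of these genes are given only as a mean ± SD over 3 libraries.

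The transcriptome was led by a few genes. The highest gene held 4.13 ± 0.407% of the library total, the 10 highest 25.03 ± 0.624%, the 50 highest 49.8 ± 0.540% and the 100 highest 58.7 ± 0.835% (SD, n = 3 libraries). The number of genes that together held 50% of the total was 49, 51 and 53 in replicates 1, 2 and 3. To reach 90% took 3270, 3391 and 3396 genes, and the 10000 highest held 98.8%. A mean of at least 1000 was found for 103 genes, of at least 100 for 877 and of at least 10 for 7300. The gene at rank 100 was HSP70 with a mean of 1034 ± 178, the one at rank 1000 was cpHsc70-1, a plastid chaperone, with 90.6 ± 8.28, and the one at rank 10000 was LNG2 with 4.63 ± 1.17. Counted as reads instead of per length, the 100 highest genes held 49.3% and 109 genes held 50%.

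**Figure D1:**
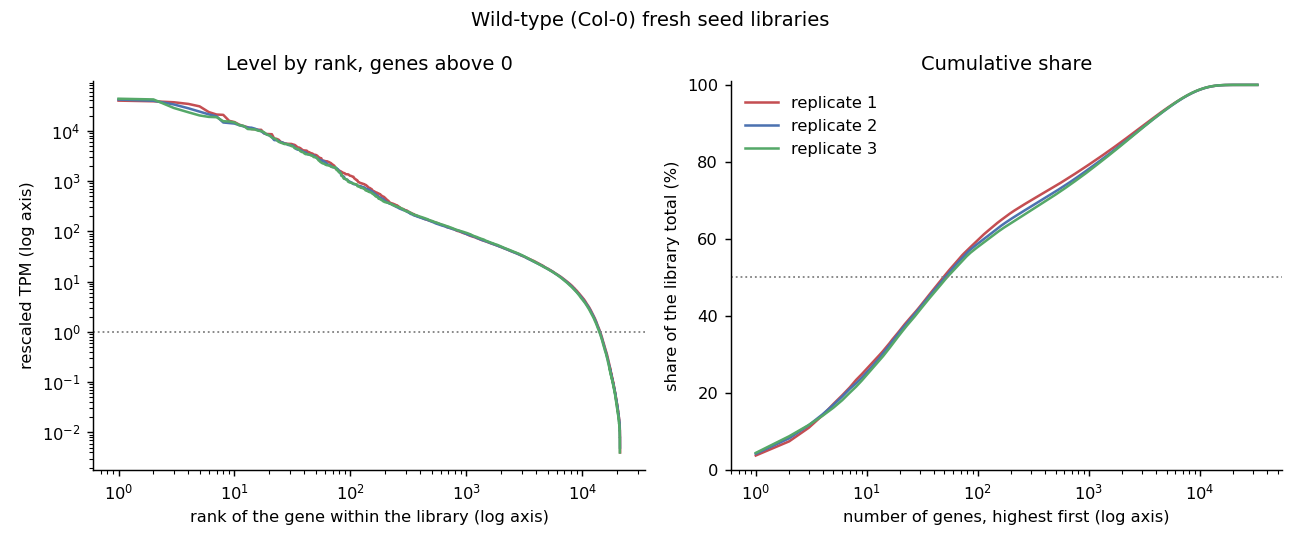
Level against rank within each library (left, both axes log, rescaled TPM, dotted line at 1) and cumulative share of the library total against the number of genes (right, dotted line at 50%), 1 line per Col-0 library. The 3 lines cross 50% at 49, 51 and 53 genes.

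Of the 32833 genes in the table, 14139 (43.1%) had a mean of at least 1, 8778 had a mean above 0 but under 1, and 9916 were at 0 in all 3 libraries. At least 1 in every library was met by 13467 genes, and 1308 reached 1 in 1 or 2 libraries. Among nuclear protein-coding genes, 13613 of 27444 (49.6%) had a mean of at least 1 and 6223 were at 0 throughout. The 49.6% stands beside every count of list members that reached 1 below. With a cutoff of 0.5 or 5 in place of 1 the count over all genes was 15545 or 9750.

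The highest nuclear protein-coding gene was RAB18 (AT5G66400, chromosome 5, 26518277 to 26519447, minus strand, TAIR10.1 build), which encodes a dehydrin, an LEA protein responsive to abscisic acid. It had 38463, 41659 and 43254 rescaled TPM in replicates 1, 2 and 3. LCR67 (AT1G75830, chromosome 1, 28472357 to 28472898, plus strand), a plant defensin gene, followed with 39657, 39465 and 41874. RAB18 was the highest gene in replicates 2 and 3 and LCR67 in replicate 1, and their ranges overlapped. The 2S albumin gene SESA5 (AT5G54740, chromosome 5, 22238358 to 22239187, minus strand) came next with 36783, 33258 and 28292, below LCR67 in every library. AT1G68250 (chromosome 1, 25579373 to 25580199, minus strand) followed at rank 4 with 20652, 27922 and 23259, and the annotation calls its product uncharacterized. These 4 genes head the ranking, so the 250 bases before their annotated starts are given. Each sequence is read from the TAIR10.1 genome on the gene's own strand, 5′ to 3′. Capitals mark 4 short words. ACGTG, searched on both strands, is the core of abscisic acid response elements. The word CACGTG, on both strands as well, is the G-box. The word CATGCA, also on both strands, is the core of the RY element bound by B3 factors such as ABI3 and FUS3. On the gene strand alone, TATAAA is a TATA box core.
RAB18, chr5:26519448-26519697, minus strand: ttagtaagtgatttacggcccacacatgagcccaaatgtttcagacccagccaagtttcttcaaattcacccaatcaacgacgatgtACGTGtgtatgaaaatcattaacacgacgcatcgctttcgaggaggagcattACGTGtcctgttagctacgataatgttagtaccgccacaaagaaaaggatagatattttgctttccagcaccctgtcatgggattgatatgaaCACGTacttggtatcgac
LCR67, chr1:28472107-28472356, plus strand: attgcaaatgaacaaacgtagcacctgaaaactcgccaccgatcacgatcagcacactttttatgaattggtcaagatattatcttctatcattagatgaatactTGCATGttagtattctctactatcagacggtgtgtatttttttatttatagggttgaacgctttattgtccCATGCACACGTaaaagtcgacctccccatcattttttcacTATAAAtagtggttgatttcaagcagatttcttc
SESA5, chr5:22239188-22239437, minus strand: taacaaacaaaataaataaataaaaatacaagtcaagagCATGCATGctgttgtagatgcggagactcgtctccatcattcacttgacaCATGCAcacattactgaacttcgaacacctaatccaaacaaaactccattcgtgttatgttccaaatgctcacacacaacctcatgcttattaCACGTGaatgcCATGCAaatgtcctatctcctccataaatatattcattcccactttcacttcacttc
AT1G68250, chr1:25580200-25580449, minus strand: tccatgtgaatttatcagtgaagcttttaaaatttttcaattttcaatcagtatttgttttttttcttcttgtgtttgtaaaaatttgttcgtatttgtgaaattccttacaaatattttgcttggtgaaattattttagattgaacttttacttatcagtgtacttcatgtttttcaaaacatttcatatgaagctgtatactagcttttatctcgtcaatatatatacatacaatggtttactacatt
RAB18 held ACGTG at 3 places, which begin 163, 111 and 18 bases before its start. LCR67 held CATGCA at 145 and 74, ACGTG at 68 and TATAAA at 34 bases before the start. SESA5 held CACGTG at 68 bases and CATGCA at 4 places, 2 of them overlapping. The AT1G68250 window held none of the 4 words.

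The same words were counted in the windows of all nuclear protein-coding genes. ACGTG was in 65.0% of the windows of the 100 highest genes and in 22.9% of all 27437 windows. CACGTG, which contains ACGTG, was in 36.0% of the 100 and in 6.49% of all, and CATGCA was in 36.0% of the 100 and in 8.43% of all. TATAAA was at 34.0% in the 100 and at 32.9% in all. The first word grew less frequent down the ranking and then levelled off. ACGTG was in 33.4% of the windows of the genes after rank 100 up to rank 1000, in 24.1% of those after rank 1000 up to rank 5000, and in 22.1% among genes with a mean under 1. For CACGTG the same 3 groups had 15.35%, 9.03% and 4.71%. For CATGCA they had 8.57%, 6.60% and 9.93%, so that word was more frequent among the lowest genes than in the groups above. Genes after rank 5000 with a mean of at least 1 had ACGTG in 22.04%, CACGTG in 6.90% and CATGCA in 6.55%. ACGTG was thus level below rank 5000, with 22.14% among genes with a mean under 1. Of the 37 listed storage, oil body and LEA genes with a mean of at least 1000, 29 held ACGTG and 19 held CATGCA. The 63 of the 100 highest genes outside these lists also stood above all windows, with ACGTG in 57.1% and CATGCA in 27.0%. The windows of the 100 highest genes had a median GC content of 36.4%, against 31.2% for all genes. The part of base composition in these shares was not tested.

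Storage protein genes together held 14.2, 9.33 and 9.62% of the total in replicates 1, 2 and 3, and all 13 listed members had a mean of at least 1. The 8 cruciferin and vicilin-like genes held 6.66 ± 2.15% (SD, n = 3). PAP85, a vicilin-like gene, was the steadiest of the leading 3 with 23477, 21138 and 20107. CRA1, which encodes a cruciferin, had 30489.7, 13866 and 15238. CRU3, the cruciferin 3 gene, had 34099, 9735 and 12865. Both were high in replicate 1, and without that library the mean of CRU3 fell to 11299.9, against 18899.6 with it, and its rank to 13, against 8. CRU2 had 4080.1, 3732 and 3539.5, also highest in replicate 1 but by less, at 1.12 times the mean of the others against 3.02 times for CRU3. Of the 8 cruciferin and vicilin-like genes, 7 were highest in replicate 1, as were 4 of the 5 2S albumin genes. The share over all 7300 genes with a mean of at least 10 was 41.5%. Without replicate 1 the list held 5.42%.

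The 5 2S albumin genes held 4.38 ± 0.567%, and SESA5 alone made 74.7% of their sum. SESA1 to SESA4 form a tandem array in Arabidopsis, and SESA2, SESA3 and SESA4 are direct neighbours on chromosome 4 in the annotation and all lie among the 100 highest protein-coding genes. SESA3 had 10401, 4202 and 7014. SESA2 had 2461, 342 and 650.4, and SESA4 went the other way with 1356, 2073 and 1865. The mean of SESA2 was 1151 over 3 libraries and 496 without replicate 1. Copies this alike can share reads, so values of single 2S albumin genes are uncertain. Among the vacuolar processing enzymes that cut storage proteins to their mature form, BETA-VPE stood at 1145 ± 62.7 and made 95.1% of the list's sum, GAMMA-VPE was at 57.9 ± 3.84, and ALPHA-VPE and DELTA-VPE were below 1.

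LEA genes were the largest of the 30 listed groups, with 16.1 ± 0.430% of the total. Of 51 members, 38 had a mean of at least 1, 30 of at least 100, and 4 were at 0 in every library, while the median member had 487. The median of all nuclear protein-coding genes was 0.940. After RAB18 came EM6 with 20972, 23984 and 18819, M17 with 12349, 19364 and 18555, and AT3G15670 with 14848, 12153 and 12444. M17 was lowest in replicate 1, and AT3G15670 highest there. EM6 encodes a group 1 LEA protein required for normal drying of the seed. The neighbours M17 and M10 on chromosome 2 were both among the 30 highest genes, with M10 at 5171 ± 281. AT3G22490 and ATECP31 formed another pair of neighbours among the 100 highest. Not all dehydrin and LEA genes were high. Chosen after their values were seen, the cold-responsive genes COR15A and COR15B were at a mean of 0.00600 each, COR47 at 0.144 and ERD10 at 0.116, while RAB18, AT2G21490 and XERO1, dehydrin genes as well, stood at 41125, 6944 and 2636.

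Oil body genes held 3.91 ± 0.182%, and 14 of the 16 members reached a mean of 1. OLEO1, which encodes an oleosin of the oil body coat, had 11717, 14226 and 14557, and OLEO2 had 5528, 5472 and 6009. The steroleosin gene HSD1 (AT5G50600) had 10802, 8427 and 8126. A second gene with the same product name, AT5G50700, is not in the list and had 8857, 7431 and 7326. These copies can share reads, and their single values are uncertain. RAB18, OLEO1 and OLEO2 overlap another annotated gene, as do 18 of the 100 highest protein-coding genes, beside 28.3% of all nuclear protein-coding genes. No strand setting is given by which the reads of overlapping genes could be told apart. The listed storage, oil body and LEA genes together held 34.1, 29.7 and 29.3% of the total. They made up 17 of the 30 and 37 of the 100 highest nuclear protein-coding genes. These shares and counts leave out AT5G50700.

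**Figure D2:**
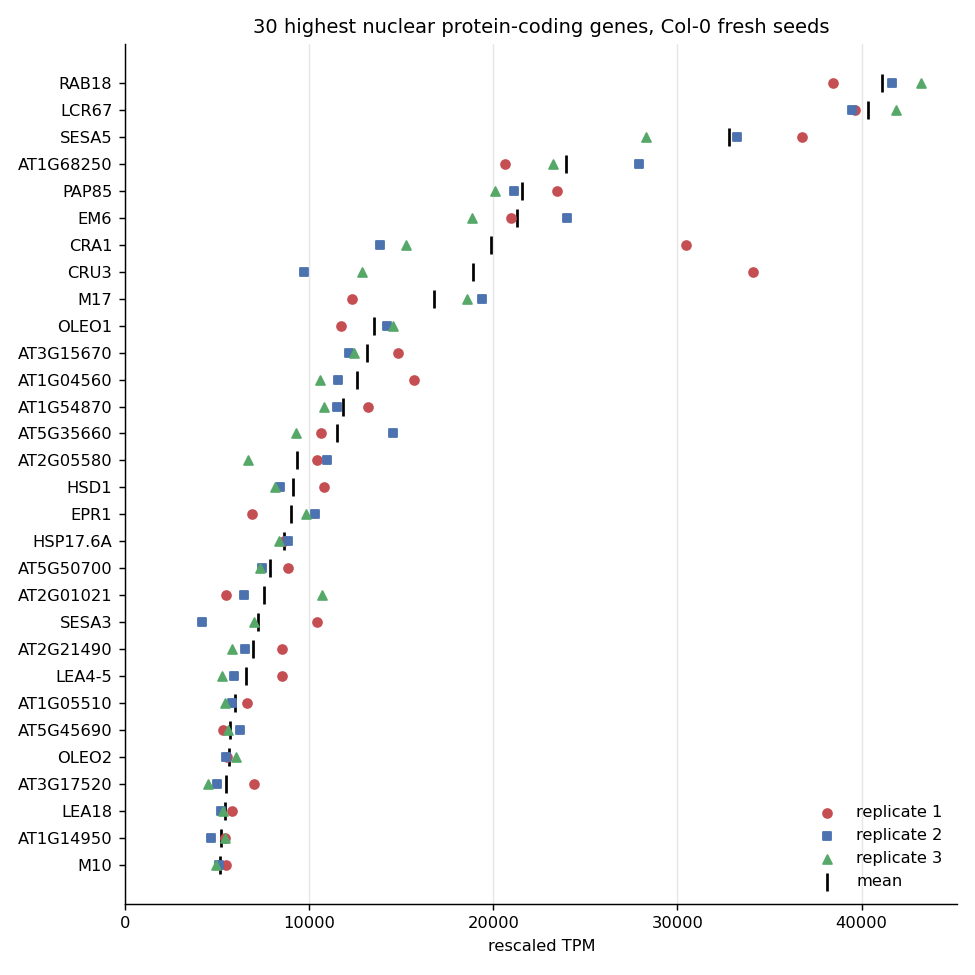
Rescaled TPM of the 30 highest nuclear protein-coding genes in the 3 Col-0 libraries (1 symbol per library, bar at the mean). CRU3 spans 9735 to 34099 and HSP17.6A 8344 to 8865.

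The remaining genes of the leading 30 had other roles. AT1G04560, annotated as an AWPM-19-like membrane protein, had 15689.5, 11555 and 10590.0. AT1G54870, annotated as a NAD(P)-binding Rossmann-fold protein, had a mean of 11832 ± 1235. Glycine-rich protein genes were AT5G35660 (11514 ± 2733) and AT2G05580 (9357 ± 2354). EPR1, an extensin-like gene expressed in the endosperm, had 6904, 10323 and 9833, lowest in replicate 1. HSP17.6A, which encodes a cytosolic small heat shock protein, had 8609, 8865 and 8344, a coefficient of variation (CV, the SD as a percentage of the mean) of 3.03%. A pair of genes annotated with DUF1264, AT1G05510 and AT5G45690, was in the 30, at 5953 ± 606 and 5706 ± 467. Of the 29 pairs of neighbours in this ranking, 27 had overlapping ranges over the 3 libraries, so most ranks are not separated by the data. AT2G01021 (chromosome 2, 6571 to 6672, plus strand) had 5472, 6473 and 10696. It is annotated as protein-coding and lies 3′ of the ribosomal RNA genes AT2G01010 (3706 to 5513) and AT2G01020 (5782 to 5945) on the same strand. Of the 100 highest protein-coding genes, 7 have products named uncharacterized or hypothetical, beside 10.7% of all nuclear protein-coding genes. AT1G68250 is the highest of the 7.

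The listed small heat shock protein genes had a median of 194 and the large chaperone and factor genes 300. The median of all nuclear protein-coding genes was 0.940. Chaperone genes were not high throughout. The 168 genes with products named as DnaJ or HSP20-like chaperones had a median of 7.38, and 13 had a mean of at least 100. Of these 168, 70.2% reached 1, beside 49.6% of all nuclear protein-coding genes. Small heat shock protein genes held 1.17 ± 0.0571%, with 15 of 16 at a mean of at least 1, and HSP17.6A made 73.7% of their sum. HSP17.4, HSP26.5 and HSP23.6-MITO followed at 587 ± 57.3, 423 ± 80.3 and 404 ± 49.96. All 10 large chaperone and heat shock factor genes reached 1, led by HSP70B at 1683 ± 151 and HSP90.1 at 1044 ± 224. HSP101, the disaggregase of heat tolerance, had 551 ± 61.8. The seed-specific heat shock factor gene HSFA9 had 358, 348 and 283.

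Genes against oxidation and metal stress differed in how much they spread between libraries. PER1, the seed 1-cysteine peroxiredoxin gene, had 3756, 4178 and 4207, and CAT3 and CAT2, which encode catalases, had 1432 ± 297 and 763 ± 64.4. The 7 metallothionein genes summed to 0.602 ± 0.00314% of the total. MT4B and MT4A, of the seed type, had 2766 ± 231 and 1103 ± 200.1, and MT2A had 2057 ± 182. The tonoplast aquaporin genes TIP3;1 and TIP3;2, channels of the protein storage vacuole, had 2187 ± 334 and 1252 ± 375. GOLS1 and GOLS2, which encode galactinol synthases at the head of the raffinose pathway, had 799 ± 228 and 677 ± 166.

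Genes for the use of stored oil had higher levels than genes for making it. Of 19 oil mobilisation genes, 18 had a mean of at least 1 and 11 of at least 100, with a median of 157. ICL and MLS, the isocitrate lyase and malate synthase genes of the glyoxylate cycle, had 4969.6, 3968 and 4884, and 1398, 1725 and 1856. The thiolase gene AT2G33150 had 629 ± 22.1, and PCK1, which encodes the phosphoenolpyruvate carboxykinase of gluconeogenesis, had 544 ± 131. Of 11 oil synthesis genes, 8 reached a mean of 1, with a median of 1.63. DGAT1, the enzyme gene of the last step of triacylglycerol synthesis, was the highest at 130.1 ± 6.40, and FAD2, an oleate desaturase gene, had 19.9 ± 3.57. The mobilisation list held 0.925 ± 0.0938% of the total and the synthesis list 0.0201 ± 0.00192%.

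The median of the embryo maturation factors was 7.70, against 487 for LEA genes. Of these 12 factors, 9 reached a mean of 1, beside 49.6% of all nuclear protein-coding genes. ABI5, a bZIP factor of abscisic acid signalling, had 562, 557 and 505. EEL, a related bZIP gene, had 100.2 ± 9.43 and ABI3 60.2 ± 4.11. Of the members outside the leading 4, named after their values were seen, FUS3 had 10.6 ± 2.23, and LEC1 and LEC2, which act early in embryo development, had no recovered read. At 3 reads over the 3 libraries, 0 reads allow a level of up to 0.0223 for one of them and 0.0303 for the other. The 10 highest genes whose product names a transcription factor were ATAF1 (1320.2 ± 181), AT1G21000 (816 ± 62.3), AT1G02700 (589 ± 182), ABI5, AT1G76590 (389 ± 50.4), AT1G35516 (335 ± 28.5), HSFA9, NAC089 (288 ± 16.8), WRKY15 (231 ± 20.6) and AT1G19000 (189 ± 14.2). ATAF1 and NAC089 are NAC genes, and AT1G21000 and AT1G76590 belong to the PLATZ zinc finger family.

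Among abscisic acid signalling genes, 21 of 26 reached a mean of 1, beside 49.6% of all nuclear protein-coding genes, with a median of 19.1. AHG1, a phosphatase gene that acts in seeds, was the highest with 609.8, 461 and 435, followed by the kinase genes SNRK2.3 (79.2 ± 5.13) and SNRK2.2 (68.4 ± 8.25) and the phosphatase gene AHG3 (55.8 ± 17.9). Named after their values were seen, the receptor genes PYL11 and PYL12 spread widely. PYL11 had 8.08, 54.9 and 45.7, and PYL12 had 8.45, 44.5 and 28.99, both lowest in replicate 1. SNRK2.6, the guard cell kinase gene, also named after its values were seen, had 0.421, 0.991 and 1.59. Of 14 genes for abscisic acid synthesis and breakdown, 11 reached 1, and ABA1, the zeaxanthin epoxidase gene, made 79.5% of the sum at 206 ± 13.1. CYP707A2, which encodes an abscisic acid hydroxylase of seeds, had 23.7, 10.7 and 9.97.

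Dormancy and germination regulators reached 1 in 9 of 11 cases, beside 49.6% of all nuclear protein-coding genes. SOM, a repressor of light-dependent germination, had 570.4, 517 and 413, and RDO5, a phosphatase-like dormancy gene, had 63.6, 127 and 120.4. MFT had 33.5 ± 6.38 and PHYA, the far-red light receptor gene, 33.3 ± 4.23. DOG1, the dormancy gene, named after its values were seen, stood outside the leading 4 at 11.2 ± 1.31. Of 24 gibberellin genes, 14 reached 1, which is not far from the share over all nuclear protein-coding genes. KO, an early enzyme gene of the pathway, had 137 ± 11.6 and the receptor gene GID1A 106 ± 10.5, both among the leading 4 of the list. GA3OX1, an enzyme gene of the last step of synthesis named after its values were seen, was at 0 in all 3 libraries. GA3OX2, of the same step and named in the same way, was at 0 in replicates 1 and 2 and at 0.019 in replicate 3.

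**Figure D3:**
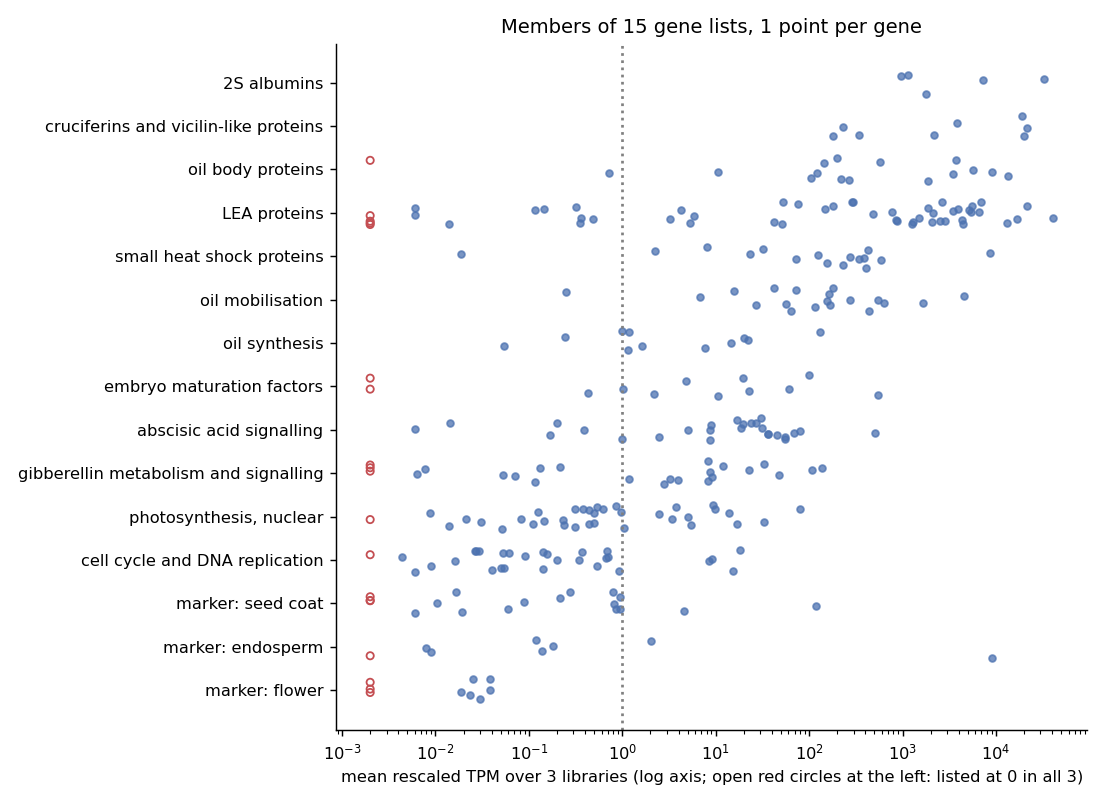
Mean rescaled TPM over the 3 Col-0 libraries (log axis) of each member of 15 gene lists, 1 point per gene, with a dotted line at 1 and open circles for genes at 0 in all 3. Storage protein members all lie above 100, and no flower marker reaches 1.

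Photosynthesis and cell cycle genes are set beside the 49.6% of all nuclear protein-coding genes that reached a mean of 1. Of 35 nuclear photosynthesis genes, 12 reached a mean of 1, and the median was 0.499. LHCB4.1, an antenna protein gene, was the highest with 112, 73.7 and 54.999, and RBCS1A, a Rubisco small subunit gene, had 8.98, 23.2 and 18.3. Of 29 cell cycle and replication genes, 4 reached 1, namely CDKA;1 (18.1 ± 1.96), RBR1 (15.42 ± 2.64), AUR2 (9.16 ± 4.92) and CYCD2;1 (8.49 ± 2.03). All 16 histone H3 and H4 genes had a mean of at least 1, with AT4G40040 highest at 283 ± 55.4. Of 10 circadian clock genes, 9 reached 1, with a median of 12.5. ELF4 was the highest with 105, 195 and 209.9, and LHY, the one below 1 and named after its values were seen, had 0.521 ± 0.259.

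Marker lists of seed coat, endosperm, pollen, root, flower, stomata and silique wall were checked against the label. Of all nuclear protein-coding genes, 49.6% reached a mean of 1 and 22.7% were at 0 in all 3 libraries. Of 18 seed coat markers, 2 reached 1, SBT1.7 (119 ± 11.2), a subtilase gene of mucilage release, and PMEI6 (4.60 ± 0.874), while the pigment regulators TT2 and TT8 and the laccase gene TT10 were at 0. Of 8 endosperm markers, EPR1 and MAN7 (2.02 ± 0.711) reached 1, and MEA was at 0. Of 36 markers of pollen, root, flower, stomata and silique wall, 3 reached 1, namely GEX1 (35.5 ± 1.98), SCR (4.50 ± 0.341) and VGD1 (6.48, 2.197 and 0.862), and 12 were at 0. These 36 genes together held 0.00482, 0.00469 and 0.00428% of the total in replicates 1, 2 and 3. Floral organ genes were at 0 for AP1, SUP and LFY, fruit genes for SHP2, IND and ALC, root genes for EXPA7, CASP1, IRT1 and COBL9, and pollen genes for HTR10 and DUO1. At 3 reads over the 3 libraries, the 16 markers at 0 could have a level of up to 0.0122 to 0.0407, for counting error only.

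**Figure D4:**
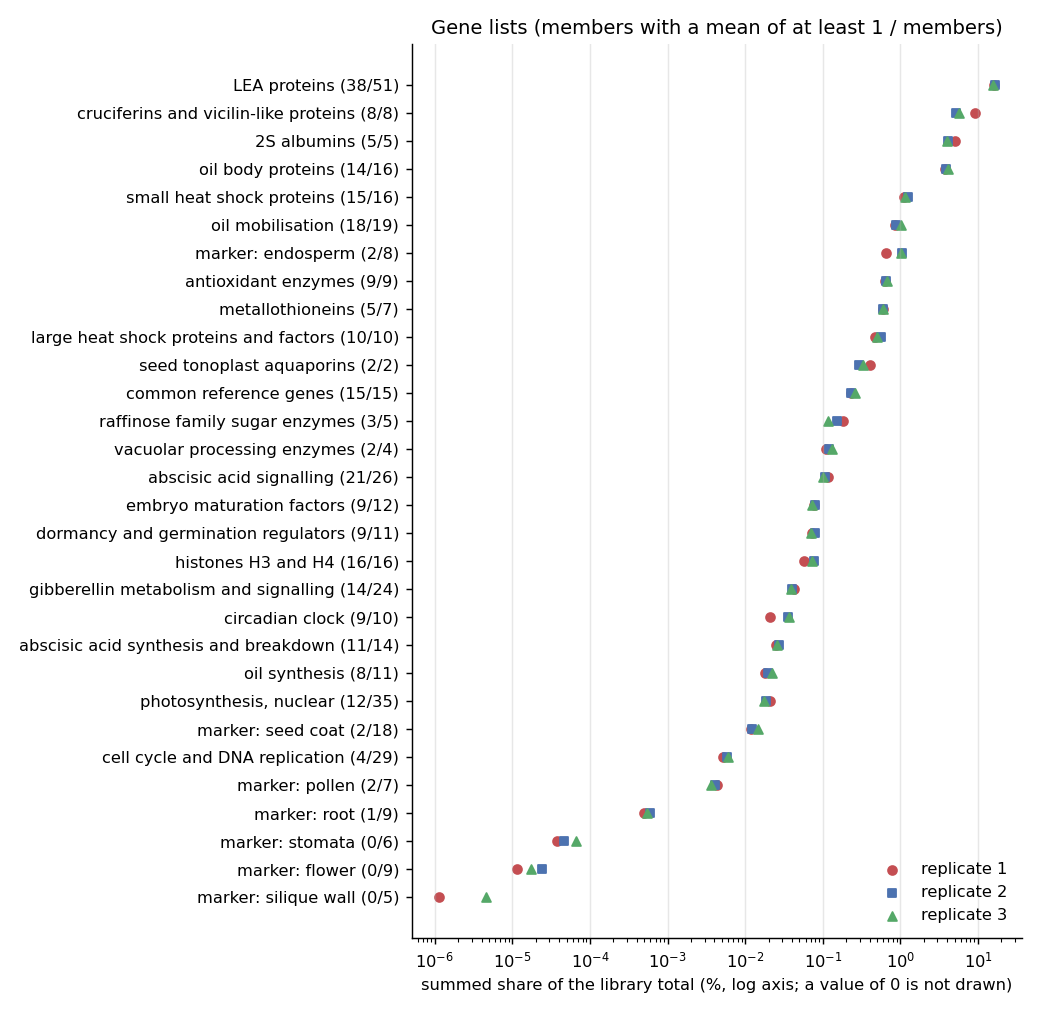
Summed share of the library total (%, log axis) of 30 gene lists in the 3 Col-0 libraries, 1 symbol per library, with the number of members that reached a mean of 1. LEA proteins are at the top with 16.2, 16.4 and 15.6%, and the markers of silique wall, flower and stomata are at the bottom.

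Gene families named by their products were unevenly present, beside 49.6% of all nuclear protein-coding genes at a mean of at least 1. Proteasome subunits reached it in 95.6% of 45 genes, ribosomal proteins in 88.8% of 385, translation factors in 86.4% of 103 and pentatricopeptide repeat proteins, which process organelle RNA, in 68.1% of 313. Protein kinases were near the background at 45.5% of 973, and transcription factors below it at 38.1% of 1146. Lower still were cytochromes P450 (30.6% of 248), disease resistance proteins (27.0% of 159), F-box proteins (21.6% of 653), SAUR-like auxin-responsive proteins (16.7% of 78), class III peroxidases (7 of 70) and expansins (5.88% of 34). Of 199 defensin-like and cysteine-rich peptide genes, 9 reached 1, and the class held 4.38 ± 0.250% of the total, of which LCR67 made 4.05%. Ribosomal protein genes, with 342 present, held 1.87 ± 0.321%.

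The highest genes were short. They are ranked by a level per length, which can itself lift short genes, and the lengths under a ranking by reads were not tested. The 100 highest nuclear protein-coding genes had a median exon length of 1005 bases and a median coding length of 633 bases, against 1552 and 1047 for all. They had 2 exons at the median, against 4, and 58.0% had 1 or 2 exons, against 38.1%. Genes after rank 1000 up to rank 5000 had a median exon length of 1757 bases and 5 exons, and genes with a mean under 1 had 1282 bases and 2 exons. By chromosome, protein-coding genes held between 12.2 ± 1.22% of the total on chromosome 4 and 27.4 ± 0.582% on chromosome 5, and 11 and 27 of the 100 highest genes lie there. These chromosomes also differ in gene number, with 4180 and 6331 of the 27444 nuclear protein-coding genes. The share of genes with a mean of at least 1 ran from 47.9% on chromosome 2 to 51.2% on chromosome 5. In 4 places, 9 of the 100 highest genes were direct neighbours, among them the runs of 2S albumin and LEA genes named above and the pair AT1G54860 and AT1G54870. How many neighbours 100 genes of other levels would have was not counted.

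Nuclear protein-coding genes held 97.9, 96.5 and 95.7% of the total in replicates 1, 2 and 3, and ribosomal RNA genes 0.975, 2.35 and 2.83%. The 18S rRNA genes AT3G41768 (5622, 12879 and 15441) and AT2G01010 (3556, 8012 and 9989.6) were lowest in replicate 1. Plastid loci held 0.0308, 0.0931 and 0.0917%, and mitochondrial loci 0.224, 0.244 and 0.370%. The highest plastid locus, ATCG00920, had 34.2, 105 and 106, and the highest mitochondrial locus, ATMG01390, had 143, 283 and 482. Of 3480 long noncoding RNA genes, 114 reached 1, and of 325 miRNA genes 24 did. The ncRNA gene AT2G14878 was the highest of its class at 1935 ± 195. MIR156c and MIR156a, which encode precursors of a miRNA of juvenile growth, had 226, 121 and 161, and 106, 62.8 and 53.2. MIR5642a (505, 818 and 1109.5) and the long noncoding gene AT3G06355 (420.2, 992 and 977) lie within 1000 bases of the 18S gene AT3G41768 on chromosome 3 and, like it, were lowest in replicate 1.

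The libraries agreed most closely when replicate 1 was left out. The median CV was 14.2% over the 14139 genes that reached a mean of 1 and 6.85% with replicate 1 left out. Between means of 10 and 100 it was 11.4%, over 6423 genes with a median of at least 1420.0 reads per library. A chi-square per gene against counting error had a median of 2.18 between replicates 2 and 3, 8.44 between 1 and 2, and 11.2 between 1 and 3, where counting error alone gives about 0.455. These values bear on whether a library was deposited in duplicate, for which the files give no sign, and on nothing further. Of the 100 highest genes of each library, replicates 2 and 3 shared 96, and replicate 1 shared 89 and 88 with them. The next counts use the values without an added 1. Among the 7300 genes with a mean of at least 10, replicate 1 was at least 2-fold above both others in 108 and at least 2-fold below both in 69. Replicate 2 was so in 0 genes either way, and replicate 3 in 5 above and 0 below.

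The genes high in replicate 1 were of several kinds. Those at least 2-fold above both others included SESA2 and SESA1 among the 5 2S albumin genes, CRU3 and CRA1 among the 8 cruciferin and vicilin-like genes, and 3 of 34 LEA genes. The largest CVs at a mean of at least 10 belonged to PDF1.4 (34.7, 4.71 and 2.96), a defensin-like gene, AT5G05965 (133, 16.2 and 17.63), CYP71B3 (45.5, 8.48 and 5.33), the phytocystatin gene CYS2 (112, 20.9 and 23.0), SESA2, AT1G80440 (68.0, 11.7 and 15.95), UGT85A1 (67.0, 17.404 and 11.54), AT3G49790 (35.6, 7.70 and 8.12), AT4G33930 (2.44, 16.2 and 34.4) and AT1G15670 (110.0, 30.04 and 25.6). Of these 10, 9 were highest in replicate 1, and AT4G33930 was lowest there. Of the 34 LEA genes with a mean of at least 10, 22 were highest in replicate 1, which is 64.7%, beside 41.5% of all 7300 genes. Of the 69 genes low in replicate 1, 15 were organelle loci, as were 5 of the 108 high there, beside 64 (0.877%) of all 7300.

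Genes often used to normalise PCR differed in how steady they were. Of 15 such genes, all with a mean of at least 1, 14 were highest in replicate 3, 12 were lowest in replicate 1, beside 37.7% and 45.2% of all 7300 genes. UBQ10 went the other way with 1263, 765 and 728. The CV was over 25% in 6 of them and under 5% in 3. Named after their values were seen, the steady ones were PP2AA3 (17.1, 16.8 and 17.7), TIP41L (31.9, 31.1 and 33.1) and UBC21 (13.8, 14.3 and 14.8). Also named after their values were seen, ACT2 had 11.9, 26.2 and 32.7 and GAPC1 14.1, 32.8 and 44.4. The 5 genes with the smallest CV at a mean of at least 10 were AT3G45190, AT2G27680, AT5G19150, AT3G27240 and AT1G78140, with CVs of 0.265 to 0.398%. They were picked as the smallest of 7300 over only 3 libraries. At read numbers such as 995, 972 and 1044 for AT3G27240, counting error alone would give a larger CV. Such values do not show that these genes are steadier than others.

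**Figure D5:**
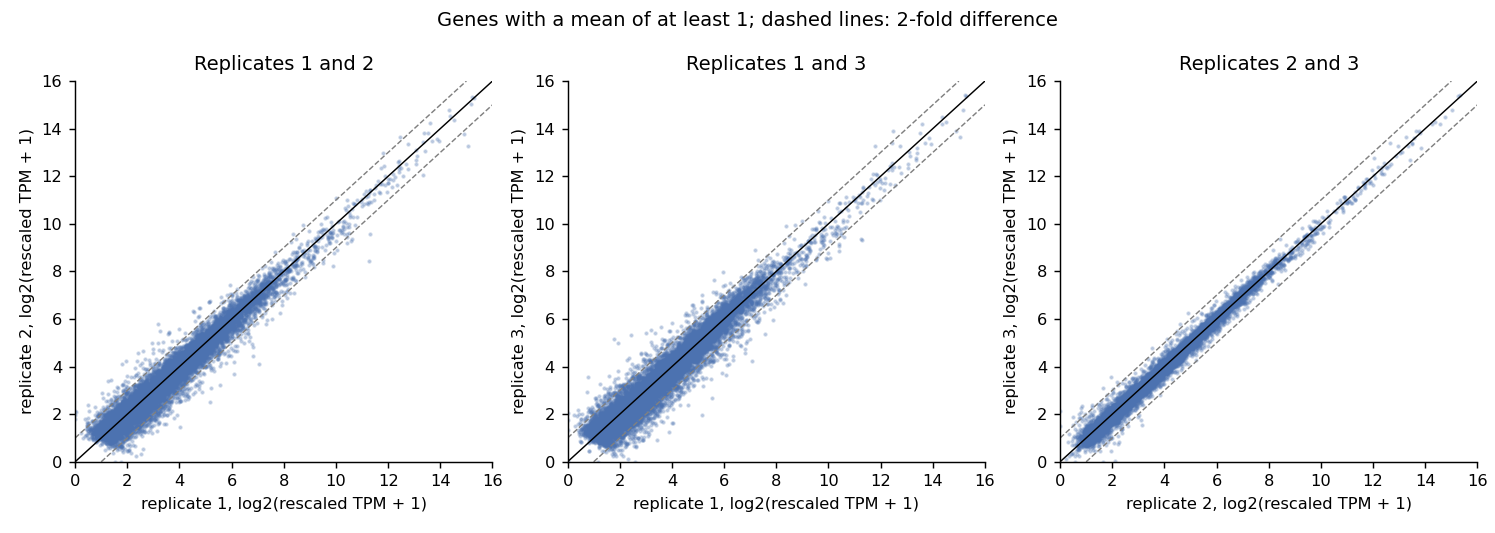
log2(rescaled TPM + 1) of the genes with a mean of at least 1, for each pair of Col-0 libraries, 1 point per gene. Dashed lines mark a 2-fold difference in rescaled TPM + 1. Points of replicates 2 and 3 lie closest to the diagonal, with 0.311% beyond 2-fold.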

How the data were processed

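The protocols in the labels give a plant total RNA kit for the fresh seeds, with library construction by a company. The submitters' processing notes name fastp 0.23.4 and HISAT2 2.2.1 as tools and TAIR10 as build. Of the read counter, annotation, strand setting and scaling step, nothing is given in the sources used here. Signal values named TPM were deposited, whose library totals differ, so they are called rescaled TPM. The 3 mutant columns and the authors' table of mutant against wild type were not used.

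Multiplying values by merged exon length (RefSeq annotation of TAIR10.1, 32548 of 32833 identifiers matched) gave, in each library, multiples of a single step. Among the values under 200 reads that could be checked, 99.3 to 99.4% lay within 0.1 of a whole number, which recovered the reads. On simulated reads for these 32548 genes and these library sizes, the code recovered 100% of the numbers from 1 to 199. Limits at 0 use 3 counts and cover counting error only.

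With 1 group there is no test, so values are means ± SD over 3 libraries. Members and lists (30 lists, 417 entries, all found) were chosen with earlier results of these data known. The 21 product-name classes were written after the ranking was seen, and the histone and cyclin patterns were corrected after their members were seen. Named genes are the 30 highest nuclear protein-coding genes, the 3 highest of each other class, the 4 highest of each list with the markers at 0, the 10 highest transcription factors, the 10 largest and 5 smallest CVs at a mean of at least 10, and ranks 1, 10, 100, 1000 and 10000. Others, such as neighbours of named genes, were named after their values were seen. Python 3.11.15, numpy 2.4.6, pandas 2.3.3 and matplotlib 3.10.9 were used.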

Additional observations from a re-analysis of the deposited data

How the results depend on the processing

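Of 236 alternative values, 202 stayed within the limit set for their kind and 34 moved beyond it. The limit was the spread between libraries for shares, correlations and CVs, and 1.5 times for counts. For promoter words it was a binomial interval around the share in the 100 highest genes, which treats genes as independent. Many of the 202 could not have moved. Scaling every library to the same total leaves the share of a gene list unchanged. Leaving out 1 of 3 libraries cannot shift the mean share of a list by as much as the SD between libraries. For list shares these settings test nothing, so the 202 does not measure how robust the shares are. Counting reads in place of per-length values put the share of the 100 highest genes at 49.3% (58.7% per length) and the genes holding 50% of the total at 109 (51 per length). By reads, 2S albumins held 2.59%, oil body genes 3.16% and LEA genes 11.9%, against 4.38, 3.91 and 16.1% per length. With nuclear protein-coding genes alone, LEA genes held 16.6%. Over the other gene lists, 20 of 156 alternative values moved, and the 156 include the settings that could not move a share. By reads 16 of 26 lists were higher and 2 lower, and with nuclear protein-coding genes alone 2 of 26 were higher. The cause of these moves was not tested beyond gene length, which the use of reads itself changes.

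The median CV was 22.3% over all genes with a mean above 0, against 14.2% at a mean of at least 1. Leaving out 1 library in turn, chosen after seeing the data, gave 6.85 to 15.99%, with the lowest without replicate 1. The mean correlation of 0.977 ran from 0.965 to 0.993, with the highest without replicate 1. ACGTG was in 74% of the windows of the 50 highest genes and 43.2% of the 500 highest. CACGTG was in 22.8% of the 500 highest. CATGCA was in 46% of the 50 highest and 16% of the 500 highest. The number of genes called present ran from 9750 to 15893 over the cutoffs tried. No paired analysis was possible because a single group was described and no test was made. Depth limits the lowest levels, and values of near-identical or overlapping genes stay uncertain.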
